A study of Mus musculus with 23 samples.

Results

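Phospholipid flippases keep the bilayer of a cell membrane uneven. The flippases of the P4-ATPase family use ATP to move phosphatidylserine, phosphatidylethanolamine or phosphatidylcholine from the outer to the inner leaflet, and most of them need a CDC50 subunit, chiefly Tmem30a, to leave the endoplasmic reticulum. Scramblases undo this order when they are activated, and phosphatidylserine that reaches the cell surface marks a dying cell for uptake by phagocytes. This account covers 8 genes chosen by symbol among 35322 listed genes: the 7 P4-ATPase genes Atp8a1, Atp8a2, Atp8b1, Atp8b2, Atp10a, Atp11a and Atp11b, and the subunit gene Tmem30a.

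The 23 libraries came from lungs of 13-week-old offspring of the Balb/c strain, with no engineered allele. Dams had received either saline (Sham) or suspended fine particulate matter (PM2.5) through the nose before mating, in gestation and until weaning, and the offspring were then sensitised and challenged with ovalbumin (OVA), a model of allergic airway disease, or received the challenge vehicle. The groups were Sham (n = 7), PM (n = 7), Sham-OVA (n = 5) and PM-OVA (n = 4), each library being polyA RNA from a piece of lung, the right lower lobe in the study's methods and RML in the labels. The offspring themselves were never dosed with PM2.5, the vehicle is called PBS in the labels and saline in the study's methods, and litter mates were not identified here, so p-values measure the spread between these libraries only.

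The saline libraries held between 13089691 and 17393579 reads assigned to genes, whereas the OVA libraries held between 2298645 and 12355561. Sham-OVA replicate 3 (2298645 reads), PM-OVA replicate 4 (4324326 reads) and PM-OVA replicate 3 (5922469 reads) were the 3 shallowest. Values are RPM, the reads of a gene per 1000000 reads of its library, and 1 read was worth between 0.0502 and 0.311 RPM. The study used female offspring, but Sham replicate 1 held 0.289 RPM of Xist and 54.0 RPM of the Y-linked gene Eif2s3y, the other libraries holding between 174.3 and 1618 RPM of Xist and no Eif2s3y read. None of 8 alveolar type 1 and 8 alveolar type 2 markers was at 0 in any group, so the tissue bore the markers of lung. Across the 16795 genes tested, the median log2 fold change on OVA challenge was -0.48 in the Sham and -0.43 in the PM cohort, so the main changes are also given relative to that median.

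The P4-ATPases share a catalytic site at which an aspartate is phosphorylated in each pumping cycle. To show how alike the members are at this site, the coding stretches around it are given below from GENCODE M21 transcripts of GRCm38, 45 bases each. Capitals mark the 5 codons that begin with that of the phosphorylated aspartate. Each stretch was found by searching for the residues DKTGT, so the capitals encode the same 5 residues in every gene.
Atp8a1: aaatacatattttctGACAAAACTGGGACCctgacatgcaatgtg
Atp8a2: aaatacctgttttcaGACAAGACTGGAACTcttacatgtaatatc
Atp8b2: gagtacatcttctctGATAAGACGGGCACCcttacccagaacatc
Atp10a: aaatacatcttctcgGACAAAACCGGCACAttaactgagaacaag
Atp11a: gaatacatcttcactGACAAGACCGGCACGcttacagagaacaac
Atp11b: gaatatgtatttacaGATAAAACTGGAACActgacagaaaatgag

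The stretch of Atp8a1 lay in exon 14 at chr5:67761155-67761199 on the minus strand, and that of its closest relative Atp8a2 in exon 13 at chr14:60023490-60023534, also on the minus strand. These were identical at 35 of 45 bases. The stretch of Atp8b2 was at chr3:89949849-89949893 (exon 13, minus strand) and that of Atp10a at chr7:58788347-58788391 (exon 7, plus strand). Atp11a carried it at chr8:12831088-12831132 and Atp11b at chr3:35809360-35809404, both in exon 13 and on the plus strand. Over the 15 pairs of the stretches shown, between 26 and 37 of 45 bases matched, and the pair Atp8b2 and Atp11a matched at the most. Atp8b1 has the site too, but its stretch is not reported here and is not in these pairs. Tmem30a, which is no pump, has no such site.

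Promoters are shown for Atp8a1, which was called lower in both cohorts on OVA challenge, and for its subunit gene Tmem30a, which changed less. Both are the 250 bases before the start in RefSeq on GRCm38.p6, and capitals mark the GC box letters GGGCGG or, on the other strand, CCGCCC.
Atp8a1, chr5:67847432-67847681, minus strand: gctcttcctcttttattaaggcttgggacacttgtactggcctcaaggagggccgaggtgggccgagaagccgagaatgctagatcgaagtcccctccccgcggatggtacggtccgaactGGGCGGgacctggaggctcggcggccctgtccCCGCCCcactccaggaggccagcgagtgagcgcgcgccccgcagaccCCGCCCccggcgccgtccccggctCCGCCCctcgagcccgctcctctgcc
Tmem30a, chr9:79793431-79793680, minus strand: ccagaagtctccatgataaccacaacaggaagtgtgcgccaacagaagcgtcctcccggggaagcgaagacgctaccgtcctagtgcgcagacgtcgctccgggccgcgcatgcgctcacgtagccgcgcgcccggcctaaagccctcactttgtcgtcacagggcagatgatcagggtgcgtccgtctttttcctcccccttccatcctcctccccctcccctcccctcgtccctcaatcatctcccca

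The Atp8a1 promoter held 4 GC boxes and the Tmem30a promoter 0. Of 32851 promoter windows of this length, 32.7% held at least 1. Of TATAAA (in 12.4% of the windows), CCAAT (33.9%) and a motif of STAT factors with a spacer of 4 bases (5.85%), neither promoter held a match. All were searched on both strands, and other spacer lengths of the STAT motif were not searched. Both were rich in G and C (70.4% and 62.8%, against a median of 52.4%). These are matches of letters only.

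The annotation of GRCm38 places Atp8a1 at chr5:67618140-67847434, Atp11a at chr8:12757014-12868728 and Tmem30a at chr9:79768943-79793507, with Atp8b1 on chromosome 18. In saline lungs the members spanned a wide range of levels. Expressed per exonic kilobase, the scale on which genes can be compared, Tmem30a was the highest in Sham at 71.9 ± 5.91 RPM per kb (SD, n = 7). Atp11a, which transports phosphatidylserine and phosphatidylethanolamine at the plasma membrane, followed at 49.5 ± 5.17, and Atp8a1, a phosphatidylserine flippase of endosomes and the plasma membrane, at 24.03 ± 4.58. The ranges of these 3 genes in the 7 Sham libraries did not overlap.

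Next came Atp8b2, a phosphatidylcholine flippase, at 7.78 ± 0.460 RPM per kb and Atp11b, a relative of Atp11a found in endosomes, at 7.43 ± 0.416. Their Sham ranges overlapped (7.11 to 8.37 against 6.74 to 7.85), so these neighbours did not differ beyond their spread. Atp8b1, whose loss in humans causes a cholestatic liver disease, stood at 4.03 ± 0.359 and Atp10a, another phosphatidylcholine flippase, at 2.42 ± 0.462. Atp8a2, known from neurons and photoreceptors, stood at 0.0615 ± 0.0199. The order of the means was the same in the other groups, and in PM the ranges of Atp8b1 and Atp10a overlapped as well. Exonic kilobases here count every annotated exon, between 5587 bases in Atp10a and 15410 in Atp8a2, so genes with long or rarely used exons read low.

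**Figure D1:**
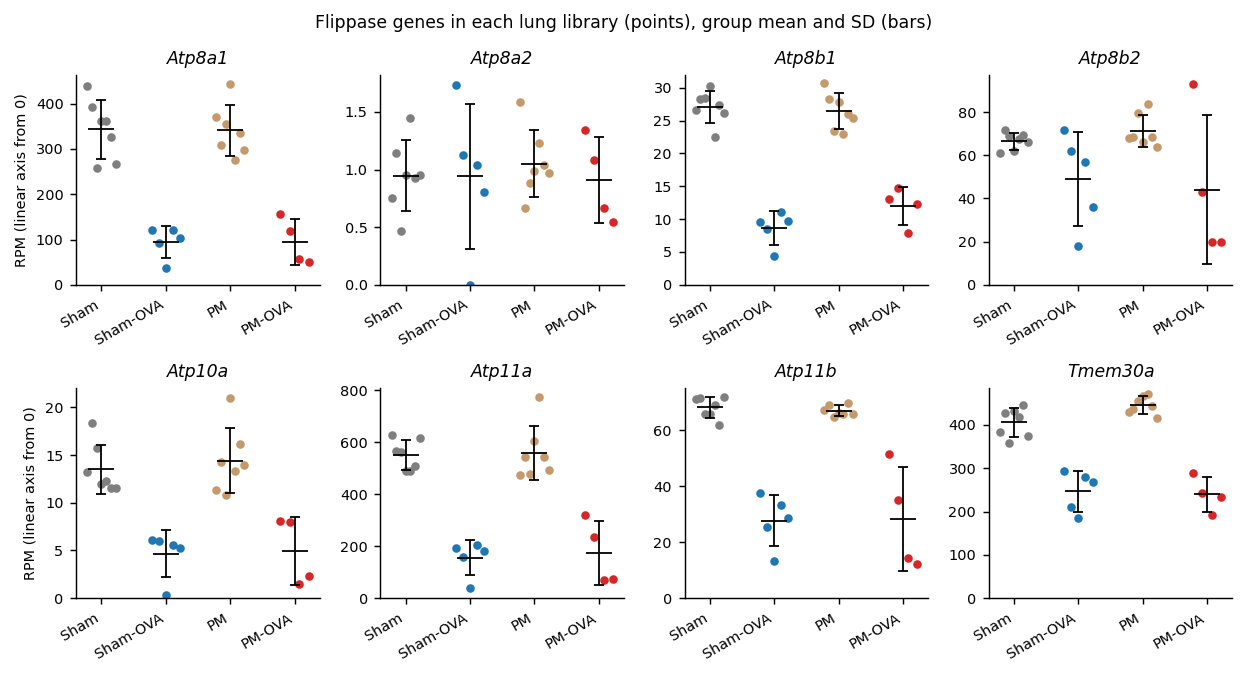
Level of each of the 8 genes in RPM (linear axis from 0, own scale per gene) in every library of the 4 groups, with the group mean and SD as bars. For Atp8a1, Atp8b1, Atp10a, Atp11a, Atp11b and Tmem30a every OVA library lies below every saline library of its cohort, while Atp8a2 lies between 0 and 1.74 RPM.

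OVA challenge in offspring of saline dams was asked first. Atp8a1 was 3.83-fold lower, and Atp11a, Atp10a and Atp8b1 fell by similar amounts, Atp11b by less and, of the members called, Tmem30a by least. Of the 8 members 6 were called lower at an adjusted p under 0.05 (limma, Benjamini-Hochberg over 16795 genes) and none higher. That share, 75.0%, stood beside 47.5% of all genes tested that were called lower and 20.6% called higher, and the members' median log2 fold change was -1.50 against -0.48 for all genes. The members were chosen with earlier results of these data known, so no test is attached to the gap between these shares.

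Atp8a1 lay between 257.6 and 438.1 RPM in the 7 Sham libraries, with a median of 360.5. The 5 Sham-OVA libraries held 121.7, 91.9, 37.3, 121.4 and 102.4 RPM. Every challenged library was thus below every unchallenged one, and replicate 3, the shallowest, was lowest at 120 reads. The means were 94.9 ± 34.7 and 343 ± 65.5 RPM, a log2 fold change of -1.94 (SE 0.26, adjusted p = 1.5e-05, limma), or -1.46 relative to the median of all genes. Its fold change was at percentile 8.45 of all genes tested.

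Atp11a fell by a similar amount. It ranged from 489.8 to 628.0 RPM in Sham (median 563.1) and stood at 194.0, 156.7, 39.1, 206.1 and 179.7 RPM in Sham-OVA. No Sham-OVA library reached the Sham range. The log2 fold change was -2.03 (SE 0.33, adjusted p = 7.6e-05, limma), or -1.55 relative to the median.

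Tmem30a, which most P4-ATPases depend on, moved much less. Its Sham libraries lay between 358.9 and 446.9 RPM (median 417.5) and its Sham-OVA libraries held 292.7, 210.3, 183.9, 280.8 and 267.3 RPM. The groups did not overlap, yet the log2 fold change of -0.73 (SE 0.14, adjusted p = 0.00038, limma) was only -0.25 relative to the median of all genes. With edgeR on the reads, uncorrected for length and GC, Tmem30a stood at -0.28 (adjusted p = 0.051) and was not called.

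Of the remaining members, Atp8b1 (-1.65, SE 0.20), Atp10a (-1.74, SE 0.43) and Atp11b (-1.36, SE 0.20) were called lower on the log2 scale. Atp10a rested on 1 read in Sham-OVA replicate 3 and on 70 to 88 reads in the other Sham-OVA libraries. Atp8b2 was not called (-0.59, SE 0.26, adjusted p = 0.061, limma): its Sham-OVA libraries ran from 18.02 to 71.7 RPM and overlapped the Sham range of 60.9 to 71.7. It was called lower when Sham-OVA replicate 1 (-0.76), replicate 2 (-0.71) or replicate 4 (-0.68) was left out. Atp8a2 was not called either (-0.13, SE 0.31, adjusted p = 0.72, limma), with 0 reads in Sham-OVA replicate 3 and between 11 and 25 reads in the other 4, near the limit of detection. In total, 6 members had every Sham-OVA library below every Sham library, beside 35.0% of all genes tested.

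Libraries of 2 kinds bear on these values. Without Sham replicate 1, the library without Xist, Atp8a1 stood at -1.88, Atp11a at -1.99 and Tmem30a at -0.75, and the 6 members were called as before. Without the 3 shallowest libraries, which here means without Sham-OVA replicate 3, Atp8a1 stood at -1.63, Atp11a at -1.58, Atp8b1 at -1.43, Atp10a at -1.15, Atp11b at -1.13 and Tmem30a at -0.63, with 6 members called lower beside 47.2% of all genes.

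**Figure D2:**
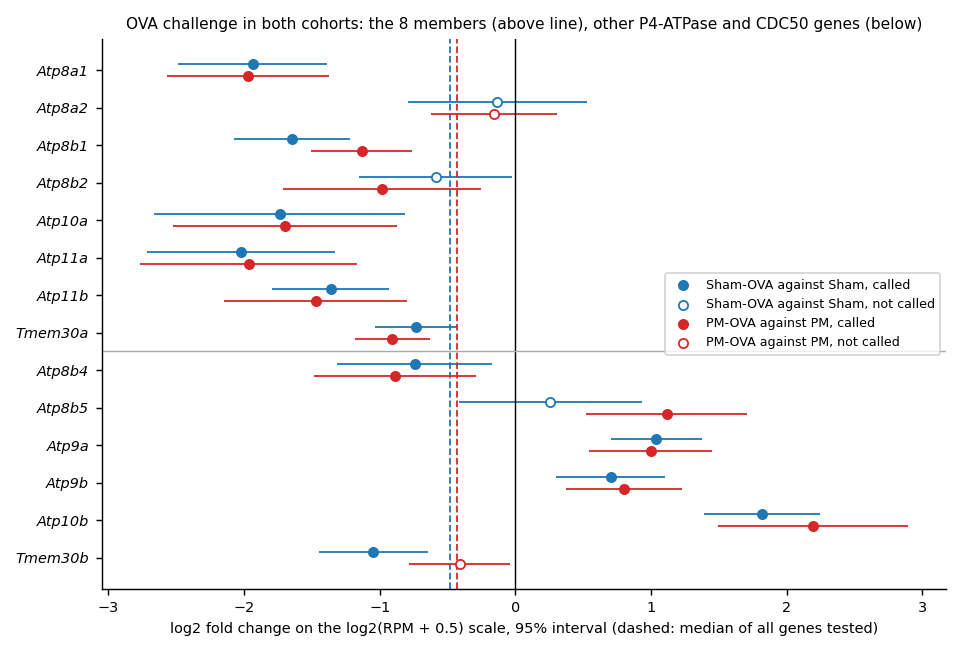
Log2 fold change with its 95% interval for OVA challenge in the Sham cohort (blue) and the PM cohort (red), filled where called. The 8 members stand above the line and 6 other P4-ATPase and CDC50 genes below it, and the dashed lines at -0.48 and -0.43 are the medians of all genes tested.

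OVA challenge in offspring of PM2.5 dams gave similar values. Of the 8 members 7 were called lower, beside 45.2% of all genes tested called lower and 20.1% called higher. The members' median log2 fold change was -1.30, against -0.43 for all genes. Those called were the 6 of the Sham cohort and Atp8b2. In 6 members every PM-OVA library was below every PM library, beside 28.6% of all genes tested.

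Atp8a1 lay between 275.9 and 443.6 RPM in PM (median 334.8) and at 156.4, 117.9, 58.0 and 49.8 RPM in PM-OVA. The groups did not overlap, and the shallower replicates 3 and 4 were the lowest. The means were 95.5 ± 50.7 and 341 ± 55.8 RPM, a log2 fold change of -1.97 (SE 0.28, adjusted p = 0.00013, limma), or -1.54 relative to the median of all genes, at percentile 6.85.

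Atp11a stood at 319.0, 236.0, 70.0 and 74.4 RPM in PM-OVA, below the PM range of 474.8 to 773.0 (median 542.3), with a log2 fold change of -1.97 (SE 0.37, adjusted p = 0.00067, limma). Tmem30a stood at 289.0, 242.1, 192.5 and 233.7 RPM, below the PM range of 414.9 to 471.1 (median 442.5), with -0.91 (SE 0.13, adjusted p = 0.00014, limma). Relative to the median of all genes these were -1.54 and -0.48. Tmem30a varied less among the 4 PM-OVA libraries than Atp11a did.

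Atp10a (-1.70, SE 0.38), Atp11b (-1.47, SE 0.31) and Atp8b1 (-1.13, SE 0.17) were called lower as well. Atp8b2 was called (-0.98, SE 0.34, adjusted p = 0.022, limma) although PM-OVA replicate 1 held 93.2 RPM, above every PM library (63.9 to 83.6). Its other values were 43.0, 19.9 and 20.0 RPM. Atp8a2 was not called (-0.16, SE 0.21), with between 3 and 20 reads per PM-OVA library.

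Leaving out the shallow libraries moved these values more in the PM cohort, where it removed 2 of 4 OVA libraries against 1 of 5. Without PM-OVA replicates 3 and 4, Atp8a1 stood at -1.31, Atp11a at -1.01, Atp8b1 at -0.90, Atp10a at -0.77, Tmem30a at -0.75 and Atp11b at -0.65, all still called, beside 31.3% of all genes called lower. Atp8b2 was then at -0.16 (adjusted p = 0.56, limma), and its call ended. Leaving out replicate 3 or replicate 4 alone also ended it, at -0.71 in each case. The fits without both rest on the pair of deeper PM-OVA libraries.

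Only larger changes count as differentially expressed under the study's threshold (adjusted p under 0.000001 and a log2 fold change beyond 1). The study applied it to DESeq2 on raw counts, whereas the main fits here are limma, so the counts below differ by test. In its lists of epithelial signature genes, the study names Atp8a1 among OVA changes unique to PM offspring. Atp11a is named there among those unique to Sham offspring. At an adjusted p under 0.05 (limma) both genes were called lower here in both cohorts, and no interaction was called for either. With limma no member passed the study's threshold in either cohort, beside 4.51% of all genes tested in the Sham and 0.286% in the PM cohort. With DESeq2 on the reads, 4 members passed in the Sham cohort and 1 in the PM cohort, beside 28.7% and 16.8% of all genes. Leaving out Sham-OVA replicate 3 alone gave 4 members in the Sham cohort, beside 18.4% of all genes.

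Long transcripts and those poor in G and C were lower in the OVA libraries across the whole table. In Sham-OVA against Sham the median log2 fold change was -0.03 among genes with under 2963 exonic bases and -0.89 among those with over 5473. It was -0.82 among genes with under 46.6% GC and -0.10 among those with over 52.9%. Atp8a1 is long and GC-poor (14278 exonic bases, 44.6% GC), Tmem30a shorter and GC-poorer (5646 bases, 39.2% GC) and Atp11a long with a middling GC content (11150 bases, 52.0% GC).

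With that trend removed from each library, Atp8a1 stood at -1.17 (SE 0.22) in the Sham and -1.19 (SE 0.21) in the PM cohort, Atp11a at -1.62 and -1.58, Atp8b1 at -1.24 and -0.70, Atp10a at -1.63 and -1.60, and Atp11b at -0.62 and -0.70. All of these were still called. Tmem30a was -0.21 in the Sham cohort (adjusted p = 0.15, limma) and -0.35 in the PM cohort (adjusted p = 0.0087, limma), so its call ended in the first. Atp8a2 turned to 0.55 and 0.52, the latter called higher (adjusted p = 0.032, limma). The share of all genes called lower was then 46.2% in the Sham and 44.3% in the PM cohort.

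**Figure D3:**
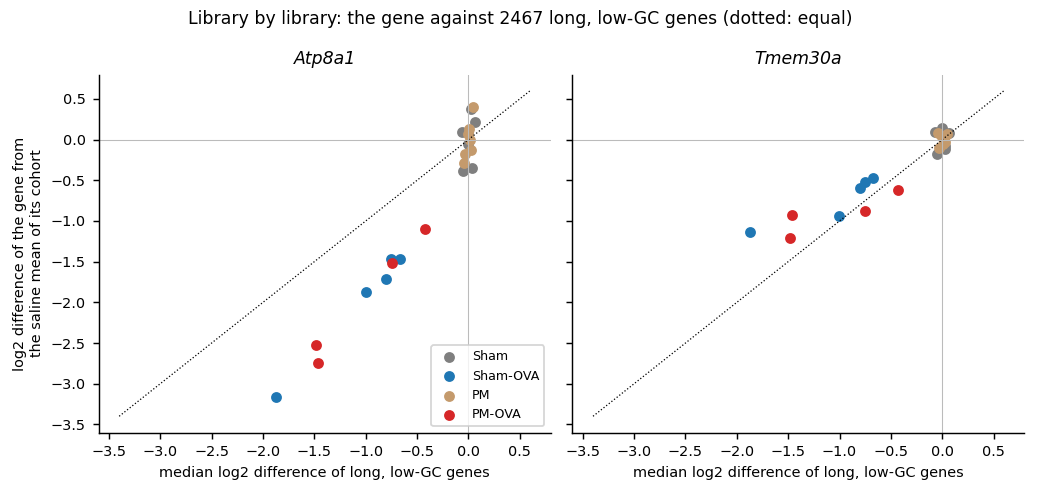
Each point is a library: the log2 difference of Atp8a1 (left) or Tmem30a (right) from the saline mean of its cohort, against the median log2 difference of 2467 long, GC-poor genes, which include Atp8a1 and Tmem30a. OVA libraries run from -0.43 to -1.87 on the horizontal axis; all 9 lie below the dotted line of equality for Atp8a1, and 7 of 9 lie above it for Tmem30a.

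In all 9 OVA libraries the difference of Atp8a1 from saline was larger than the median of these genes. The set starts above 5473 exonic bases, whereas Atp8a1, at 14278, was at percentile 97.3 for length among the genes tested. It is thus not matched to Atp8a1 in length, and whether the gap goes beyond the trend was not tested here. In Sham-OVA replicate 1 the long, GC-poor genes differed from the Sham mean by -0.67 at the median and Atp8a1 by -1.47. In Sham-OVA replicate 3 the values were -1.87 and -3.16. In PM-OVA replicate 1, the OVA library nearest to saline, they were -0.43 and -1.10. The number of points is small and they share the scaling of their library, so no test is attached.

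Because most of these pumps work with Tmem30a, each was also set against it within the same library, as the log2 ratio of (RPM + 0.5). This ratio hardly depends on how the library was scaled, but it is not corrected for the length and GC trend above. Tmem30a has 5646 exonic bases against 14278 for Atp8a1, 11150 for Atp11a, 9176 for Atp11b and 5587 for Atp10a. The part of that trend in the ratios was not tested. Over 7 pumps and 4 pairs of groups, 28 ratios were compared by exact permutation (two-sided, Benjamini-Hochberg adjustment over the 28), and 9 passed.

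The log2 ratio of Atp8a1 to Tmem30a was -0.26 ± 0.25 in Sham and -1.47 ± 0.47 in Sham-OVA, a difference of -1.20 (exact permutation p = 0.0013, adjusted 0.0088, the smallest p that 5 against 7 libraries allow). All 5 challenged libraries were below all 7 unchallenged ones. In the PM cohort it was -0.40 ± 0.22 in PM and -1.47 ± 0.62 in PM-OVA, a difference of -1.06 (exact permutation p = 0.0030, adjusted 0.017), with no overlap in 4 against 7 libraries. Without the 3 shallowest libraries the difference was -0.999 in the Sham cohort (exact permutation, adjusted p = 0.017) and -0.56 in the PM cohort, where 2 against 7 libraries gave an adjusted p of 0.086 by the same exact permutation test and cannot go below 0.028 before adjustment.

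Atp11a also fell relative to Tmem30a, by 1.29 in the Sham and by 1.06 in the PM cohort (exact permutation, adjusted p = 0.0088 and 0.032). Without the 3 shallowest libraries these differences were -0.95 (exact permutation, adjusted p = 0.017) and -0.26 (exact permutation, adjusted p = 0.31). In the Sham cohort the ratio was also lower for Atp8b1 (-0.91, adjusted p = 0.0088), Atp11b (-0.63, adjusted p = 0.0088) and Atp10a (-1.01, adjusted p = 0.024) by the same exact permutation test. In the PM cohort these were -0.23, -0.56 and -0.79, with adjusted p of 0.21, 0.19 and 0.15, and the difference between the cohorts' ratios was not tested. Atp8b2 kept no direction against Tmem30a (0.15 and -0.07, exact permutation, adjusted p = 0.84 and 0.91). Atp8a2 rose against it by 0.75 in the PM cohort (exact permutation, adjusted p = 0.024) on very few reads. Set against the sum of the other members instead of Tmem30a, Atp8a1 still passed in both cohorts (-0.68 and -0.65), whereas Atp11b (0.03) and Atp10a (-0.35) in the Sham cohort and Atp11a (-0.72) in the PM cohort did not, and Atp8b2 rose (0.86 and 0.50). Without Sham-OVA replicate 3 the Atp10a ratio to Tmem30a was -0.52, no longer a call.

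**Figure D4:**
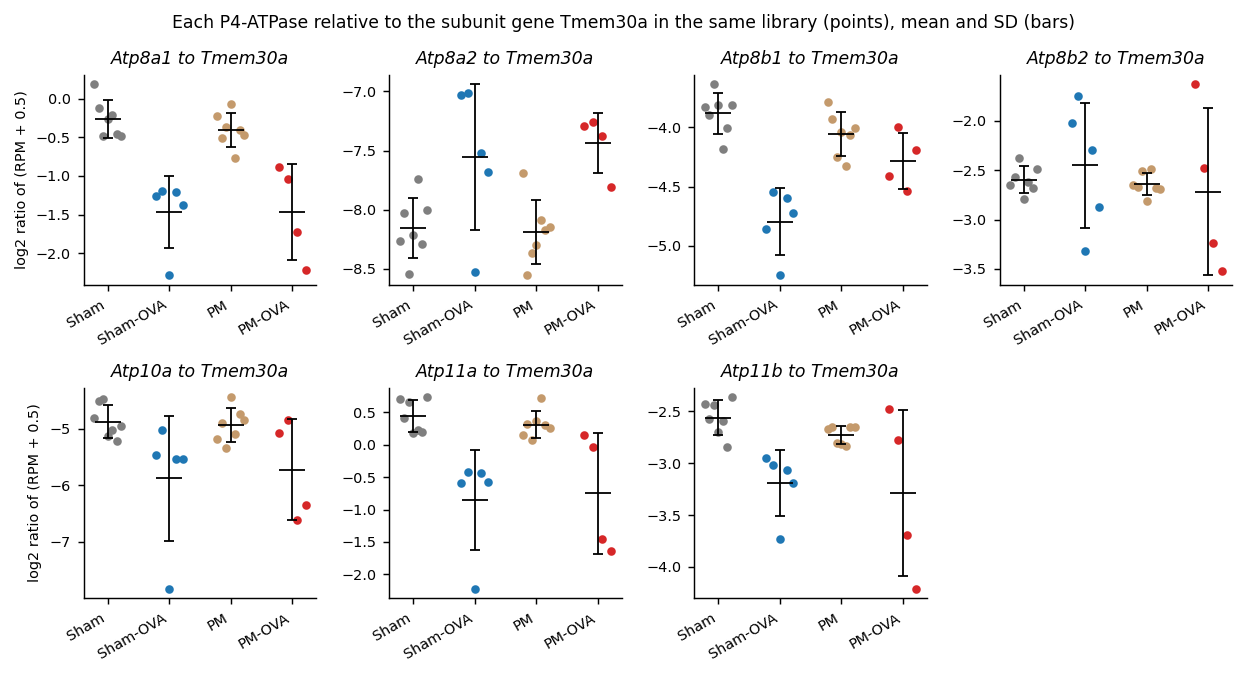
Log2 ratio of each of the 7 P4-ATPase genes to Tmem30a within a library, by group, with mean and SD. The ratios of Atp8a1 in the OVA libraries, between -2.29 and -0.88, all lie below those in the saline libraries, between -0.77 and 0.19.

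Added up per exonic kilobase, the 7 pump genes amounted to 95.3 ± 7.28 RPM per kb in Sham and 31.5 ± 12.4 in Sham-OVA, and to 96.2 ± 9.71 in PM and 33.3 ± 21.4 in PM-OVA. Atp8b2 took a larger share of that sum on OVA challenge, although its own mean RPM was lower in both OVA groups than in their saline groups. It made up 8.21 ± 0.823% in Sham (6.57 to 9.03) and 18.4 ± 3.72% in Sham-OVA (12.8 at the lowest), and 8.68 ± 0.940% in PM (7.15 to 10.4) and 14.9 ± 2.60% in PM-OVA (12.0 to 18.3). Its ranges did not overlap between challenged and unchallenged libraries. The share of Atp11b was also higher in Sham-OVA (8.46 to 14.02%) than in Sham (7.17 to 8.31%), whereas its ranges in PM and PM-OVA overlapped. These shares are not corrected for the length and GC trend above, and its part in them was not tested. Atp11a remained the largest component, at 52.0 ± 3.56% in Sham and 42.8 ± 5.66% in Sham-OVA. Atp8a1 made up 25.2 ± 3.87% and 21.7 ± 2.09%, with overlapping ranges.

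In unchallenged lungs no member differed detectably with maternal PM2.5 exposure. In PM against Sham, limma called 0% of all genes tested and no member (731 genes had an unadjusted p under 0.05). Atp8a1 differed by -0.00 (95% interval -0.28 to 0.27) and Atp11a by 0.00 (-0.23 to 0.24). The member nearest to a difference was Tmem30a at 0.14 (-0.01 to 0.29, unadjusted p = 0.069, adjusted p = 0.90, limma). The intervals reached furthest for Atp8a2 (up to 0.44) and Atp10a (up to 0.38).

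Among challenged lungs the intervals were far wider. In PM-OVA against Sham-OVA, limma called 0% of all genes tested and no member (313 genes with an unadjusted p under 0.05). Atp8a1 differed by -0.04 (95% interval -1.01 to 0.94), Atp11a by 0.06 (-1.30 to 1.43) and Tmem30a by -0.04 (-0.47 to 0.39). Atp8b1 differed by 0.47 (-0.25 to 1.20), and its ratio to Tmem30a was higher in PM-OVA by 0.51, in 4 of 4 libraries above all 5 Sham-OVA ones (exact permutation p = 0.016, adjusted 0.049). With any 1 of the 9 libraries left out the difference lay between 0.40 and 0.60. The adjusted p was then between 0.080 and 0.12, in designs whose smallest exact permutation p before adjustment is 0.018 or 0.029. That it did not pass there says nothing of its stability.

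The interaction asks whether the OVA response itself differed between cohorts. Limma called 0% of all genes tested and no member (854 genes with an unadjusted p under 0.05), and DESeq2 called 2 genes, none of them a member. With array weights, which give less weight to libraries that stand apart, 5 members and 4616 genes were called, 3965 of the genes lower and 651 higher, and without the 3 shallowest libraries 0 members and 721 genes, 109 lower and 612 higher. For Atp8a1 the difference between the cohorts' log2 fold changes was -0.03 (95% interval -0.85 to 0.78) and for Atp11a 0.06 (-1.01 to 1.13). Atp8b1, whose fold change was smaller in the PM cohort, came nearest at 0.51 (-0.03 to 1.06, unadjusted p = 0.065, adjusted p = 1.00, limma). A difference of 1 in size on the log2 scale lay within the intervals of Atp8b1, Atp8b2, Atp10a and Atp11a, so a difference in the OVA response of these genes was not detectable at this depth and number of libraries.

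Other P4-ATPase and CDC50 genes did not follow the members as a block. The members and this list were both chosen with earlier results of these data known, so the contrast between them is a description only. Of 9 genes listed, 6 were tested, Atp8b3 and Tmem30c being too low and Atp10d not analysed here. In Sham-OVA against Sham 3 rose and 2 fell, and in PM-OVA against PM 4 rose and 1 fell, beside 20.6% and 20.1% of all genes called higher. The list's median log2 fold change was 0.48 and 0.90.

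Atp9a and Atp9b, P4-ATPases of the Golgi and endosomes that need no CDC50 subunit, rose. Atp9a went from 106 ± 16.8 to 219 ± 49.7 RPM in the Sham cohort (1.04, SE 0.16) and by 1.00 (SE 0.21) in the PM cohort. Atp9b rose by 0.70 (SE 0.19) and 0.80 (SE 0.20). Both rose under median-of-ratios scaling too (Atp9a by 1.41 and 1.36), and without the 3 shallowest libraries they stood at 0.92 and 0.53 (Atp9a) and at 0.49 and 0.37 (Atp9b), all called.

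Atp10b, a glucosylceramide and phosphatidylcholine flippase that was low in saline lung, rose from 0.116 ± 0.0344 to 1.76 ± 0.685 RPM in the Sham cohort and from 0.317 ± 0.302 to 3.32 ± 1.55 in the PM cohort. Its log2 fold changes of 1.82 and 2.19 are understated by the pseudocount at these levels. Atp8b4 fell (-0.74 and -0.89), a call that ended in both cohorts with the length and GC trend removed (-0.30 and -0.42). Atp8b5, best known from testis, was called higher in the PM cohort (1.11, SE 0.27) and was at 0.26 (SE 0.32) in the Sham cohort. A difference between the cohorts was not called for it. Tmem30b, the other CDC50 subunit measured, fell from 36.2 ± 7.02 to 17.5 ± 4.30 RPM in Sham-OVA (-1.05, SE 0.19) and was not called in PM-OVA (-0.41, SE 0.17, adjusted p = 0.051, limma).

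Over all 6 lists of the wider pathway, 46 of 61 genes tested were called in Sham-OVA against Sham, 35 lower and 11 higher, beside 68.1% of all genes. In PM-OVA against PM 40 were called, 31 lower and 9 higher, beside 65.3% of all genes. The shares called, 75.4% and 65.6%, were thus near those of all genes, and the medians were -0.73 and -0.63. With median-of-ratios scaling the split moved to 30 lower and 19 higher in the Sham cohort and to 28 lower and 18 higher in the PM cohort, and that of all genes to 6361 lower and 4927 higher and to 5974 lower and 4883 higher. With edgeR on the reads, the pathway split was 27 lower and 23 higher in the Sham and 26 lower and 19 higher in the PM cohort. That of all genes was 5669 lower and 5584 higher in the Sham and 5095 lower and 5120 higher in the PM cohort.

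All 6 genes analysed as partners of flippases were called lower in each cohort, with medians of -1.50 and -1.55, beside 47.5% and 45.2% of all genes. Without the 3 shallowest libraries 6 and 5 of them were, with medians of -1.21 and -0.85, beside 47.2% and 31.3% of all genes. With the length and GC trend removed 6 and 5 were, with medians of -0.82 and -0.89, beside 46.2% and 44.3% of all genes. With both steps 6 and 3 were, with medians of -0.59 and -0.36, beside 7612 and 4615 of 16535 genes. The partners include scaffolds of the Dop1 and Mon2 kind, the small GTPase Arl1, and the exchange factors Arfgef1 and Arfgef2 of ARF GTPases. Arfgef1 fell from 62.4 ± 8.29 to 9.83 ± 5.35 RPM (-2.95, SE 0.45) and changed by -2.97 in the PM cohort (-1.57 without the shallow libraries). Arl1 fell from 2.49 ± 0.590 RPM to 0.0298 ± 0.0410 (-2.47, SE 0.19), and its change was -2.14 in the PM cohort.

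Among the scramblases 11 of 16 genes were called lower and 2 higher in each cohort, beside 47.5% and 45.2% of all genes called lower. With the length and GC trend removed 8 and 10 were called lower and 2 higher in each, beside 46.2% and 44.3% of all genes. With DESeq2 on the reads 10 were lower and 5 higher in the Sham cohort and 9 lower and 4 higher in the PM cohort. All genes then split into 6391 lower and 5286 higher in the Sham and 5376 lower and 5321 higher in the PM cohort. Ano6, the calcium-activated scramblase that exposes phosphatidylserine, fell from 168 ± 25.1 to 19.0 ± 7.61 RPM (-3.21, SE 0.24) in the Sham cohort, and its change was -3.24 (SE 0.63) in the PM cohort. Without the 3 shallowest libraries it stood at -2.95 and -1.63. Plscr2 stood at -2.40 and -2.06 and Plscr4 at -2.13 and -2.18, and without the shallow libraries these were -1.26 (Plscr2) and -1.33 (Plscr4) in the PM cohort. Plscr3, a mitochondrial relative, and Vmp1, a scramblase of the endoplasmic reticulum, were the 2 that rose (Plscr3 by 0.95 in both cohorts, Vmp1 by 0.50 and 0.83), named after their values were seen. Plscr3 was at 0.48 in the PM cohort without the shallow libraries, still called.

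Of the lipid-exporting ABC transporters 3 of 5 were called in each cohort, 2 lower and 1 higher, beside 68.1% and 65.3% of all genes called. Abca7 rose by 1.33 and 1.34, the latter being 0.52 without the shallow libraries. Abca1, which loads lipid onto apolipoproteins, stood at -1.11 and -1.15 (-0.58 without them) and Abcc1 at -1.36 and -1.14 (-0.43 without them). Genes of phosphatidylserine synthesis and transport were called lower in 8 of 10 and 7 of 10 cases, beside 47.5% and 45.2% of all genes. In each cohort 1 of 10 was called higher. Sacm1l, a phosphoinositide phosphatase, fell from 48.8 ± 6.38 to 4.85 ± 2.05 RPM (-3.29, SE 0.23), and its change in the PM cohort was -3.64 (SE 0.65), or -1.94 without the shallow libraries. Pisd, which turns phosphatidylserine into phosphatidylethanolamine, stood at -2.13 and -1.70, the latter -0.84 without them.

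Receptors and bridging proteins for exposed phosphatidylserine moved in both directions. In the Sham cohort 6 of 18 genes (33.3%) were called lower and 4 higher, beside 47.5% of all genes called lower. In the PM cohort 4 (22.2%) were called lower and 1 higher, beside 45.2% of all genes called lower. Under median-of-ratios scaling the counts for this list became 4 lower and 10 higher in the Sham cohort and 4 lower and 8 higher in the PM cohort. That scaling moved all genes to 6361 lower and 4927 higher in the Sham and 5974 lower and 4883 higher in the PM cohort. Mertk, the phagocyte receptor, fell from 48.0 ± 8.64 to 12.1 ± 5.44 RPM (-2.11, SE 0.32), with -2.23 in the PM cohort (-1.12 without the shallow libraries). The bridging proteins Edil3 (-2.40 and -2.26) and Pros1 (-1.94 and -2.32) also fell, Pros1 being at -0.77 in the PM cohort without the shallow libraries. The gene called higher in the PM cohort was Gas6, also a bridging protein (0.85, SE 0.14), named after its value was seen, and it was not called with the length and GC trend removed (0.32).

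**Figure D5:**
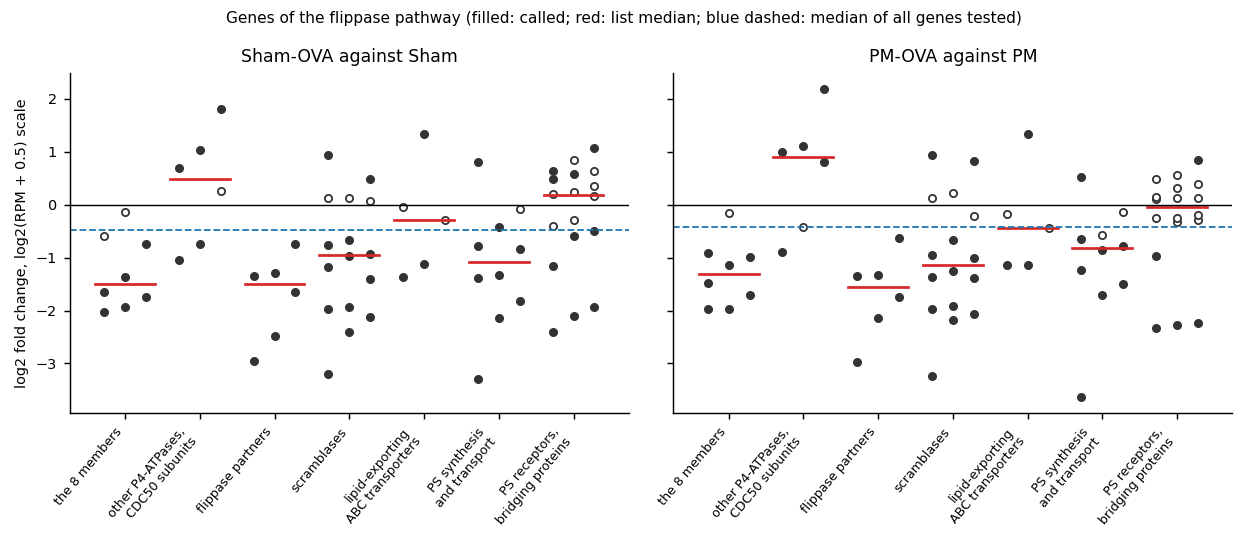
Log2 fold change of every tested gene of the 8 members and of 6 pathway lists (PS, phosphatidylserine) for OVA challenge in each cohort, filled where called, with the list median in red and the median of all genes tested (-0.48 and -0.43) as a dashed line. The members and the flippase partners lie almost wholly below that line, the other P4-ATPases on both sides of it.

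In whole lung, fewer cells of a type and less RNA per cell cannot be told apart. Markers of several cell types moved with OVA. The summed level of 8 alveolar type 1 markers went from 5825 to 8238 RPM in Sham to 4101 to 5495 in Sham-OVA, and from 6916 to 8037 in PM to 4954 to 5640 in PM-OVA, with 6 of 8 markers called lower in each cohort. That of 8 fibroblast markers went from 4420 to 6494 RPM to 1409 to 3719 in the Sham cohort, with 5 of 8 called lower, whereas the summed level of 8 alveolar type 2 markers rose from 13935 to 24393 RPM to 29742 to 36495, with 2 called higher and 4 lower. In the PM cohort the alveolar type 2 sums were 16995 to 31573 RPM in PM and 23952 to 43327 in PM-OVA, overlapping, with 2 called higher and 4 lower. The 8 markers of interstitial and recruited macrophages summed to 759 to 1393 RPM in Sham and 3425 to 5683 in Sham-OVA, with 7 called higher, and the 6 eosinophil markers to 3.72 to 17.1 and 17.4 to 97.2 RPM, Epx and Ear6 being at 0 in every saline library. The part of these shifts in the changes of the flippase genes was not tested.

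Among the 14 saline libraries Atp8a1 itself varied from 257.6 to 443.6 RPM. Over these libraries, centred within Sham and PM, the 5 genes most like it among 11743 others with a mean of at least 5 RPM were Nfil3 (Pearson r = 0.93), Traf6 (0.91), Ahcyl2 (0.91), Arntl (0.90) and Pik3cg (0.90). Nfil3 and Arntl encode transcription factors, Traf6 an adaptor of innate immune receptors and Pik3cg a lipid kinase of leukocytes. Of the members, Tmem30a stood at 0.42 (rank 2559) and Atp11a at -0.19 (rank 7493). With 14 points that share the depth and scaling of their libraries, these are descriptions of likeness only.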

How the data were processed

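The authors trimmed reads with Trimmomatic, mapped them to GRCm38 with Bowtie2 and quantified genes in SeqMonk. The deposited table gives RPM (reads per 1000000), whatever its name, and the values were whole reads in 100% of cases (tolerance 0.1 read); how strand was counted is not given in the sources used here. Overlapping genes shared at most 1.79% of a member's exonic bases, except 13.4% for Atp8a2. A gene entered the fit if 4 or more libraries of the 23 reached 0.5 RPM. Fits used limma 3.58.1 (variance trend) on log2(RPM + 0.5), each pair of groups fitted alone, with Benjamini-Hochberg adjustment. Fold changes are on that scale, which understates low genes. Alternatives were other pseudocounts, filters and scalings, array weights, edgeR 4.0.16 and DESeq2 1.42.0 on counts recovered from the deposited values (edgeR called 11253 genes in the Sham and 10215 in the PM cohort, DESeq2 11677 and 10697), a replicate block, length and GC correction, and leaving out libraries; the fits were tested on simulated data. Some genes of the pathway are not reported here. Members and gene lists were chosen with earlier results of these data known. Genes named were all members, all other tested P4-ATPase and CDC50 genes of the lists, at most 2 called genes with the largest change per other list and cohort, and the 5 most like Atp8a1. Python 3.11.15 and R 4.3.3 were used.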

Additional observations from a re-analysis of the deposited data

Results flagged for a closer look

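Atp8a1 at 37.3 RPM, Atp11a at 39.1 RPM and Atp10a at 0.311 RPM (1 read) in Sham-OVA replicate 3 lay far from the other 4 Sham-OVA libraries by Dixon's criterion. This was so for 3 of 32 gene and group combinations examined, where chance gives about 1.6, and all 3 are in the shallowest library. Values without it are given with the Sham cohort above.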

How the results depend on the processing

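In both OVA comparisons Atp8a1, Atp8b1, Atp10a and Atp11a were called lower under every alternative run, Atp8a1 from -2.06 to -0.92 in the Sham and from -2.43 to -0.72 in the PM cohort. Tmem30a was called in 23 of 26 alternatives in the Sham cohort and Atp11b in 24 of 25 and Atp8b2 in 14 of 25 in the PM cohort. The fits without the 3 shallowest libraries were chosen after seeing the data. Atp8a2 turned upwards with the length and GC trend removed (0.52 in the PM cohort) and with the shallow libraries left out too (0.86 and 0.67), where Atp8b2 came to 0.018 in the PM cohort. Array weights called 5 members and 26 pathway genes in the interaction (Atp10a -1.21, Atp11a -1.08), and leaving out the shallow libraries called 0 members and 6 pathway genes, or 7 with the trend removed. The cause was not tested. Members past the study's threshold numbered 1 with median-of-ratios scaling, quantile normalisation or all 4 groups in one fit, 4 with array weights, DESeq2 or without the shallow libraries (26.4%, 28.7% and 18.4% of all genes), 2 with the trend also removed (14.2%), and 0 to 4 over single libraries left out in the Sham cohort; in the PM cohort 3 with array weights (2516 of 16795 genes) and 1 with DESeq2 (16.8%). Of the 28 ratios to Tmem30a, 5 rather than 9 passed without the shallow libraries, all in the Sham cohort. The 5 include Atp8a2, which rose by 0.84 on few reads (exact permutation, adjusted p = 0.017). With all libraries its Sham-cohort ratio had not passed (exact permutation, adjusted p = 0.12). In the PM cohort, 2 against 7 libraries could not go below an exact permutation p of 0.028 before adjustment. Against the sum of the other members, the ratio of Atp8b2 in the PM cohort was 0.50 and that of Atp11b in the Sham cohort 0.034. The replicate numbers are those of the sample titles, and the library names in the labels carry other numbers for 8 of the 9 OVA libraries, so a block may set unrelated libraries together. Same-numbered replicates were not treated as paired in the main fits. Their deviations correlated between -0.31 and 0.62, both ends in PM-OVA against Sham-OVA, which cannot settle whether libraries are paired. With the replicate block the members called were 6 and 6 rather than 6 and 7, Atp8b2 losing its call in the PM cohort at -0.97, beside 59.7% and 47.5% of all genes called. Depth limits Atp8a2 and Atp10a most.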
